A study of Mus musculus with 16 samples.

Results

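The Krüppel-type zinc finger gene cluster at the distal end of mouse chromosome 2 was represented among the differentially methylated (DM) sites of mouse liver by 7 gene names, Gm14431, Gm8898, 0610010B08Rik, Gm14308, Gm14430, Gm14434 and Gm4724. These names were chosen by name from the deposited list of DM sites, a list that holds only sites with a difference between genotypes, so their logFC and p values describe the members and test nothing. The 7 names held 9 of the 622 listed rows, and the 9 rows held 3 of the 614 distinct positions. In the m6A-seq experiment, poly(A) RNA from liver was fragmented and enriched with an antibody against N6-methyladenosine (m6A), and the enriched library (IP) of each animal was compared with its unenriched library (INPUT). Livers came from 4 wild type mice, Albumin-Cre;Mettl14+/+, and from 4 mice with a conditional knockout of Mettl14, Albumin-Cre;Mettl14 flox/flox, which gave 16 libraries, and all mice had received a diet with 42% fat for 3 months. Mettl14 encodes a subunit of the methyltransferase that writes m6A, and the Albumin promoter drives Cre in hepatocytes. Whether other cell types of the liver were also targeted is not stated in the sources used here. Ages and sexes were not given in the labels. No values of single mice were in the list, so sequencing depth is unknown, and neither the knockout nor the tissue could be checked against Mettl14 or liver marker levels.

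C2H2 zinc finger proteins read DNA with tandem fingers, in each of which a pair of cysteines and a pair of histidines hold a zinc ion. Many members of this family in the mouse also carry a KRAB box, which recruits the cofactor TRIM28 and the histone methyltransferase SETDB1 and silences transposable elements. The genes lie in clusters that grew by duplication, and the fingers within each gene are repeats themselves. m6A is placed by the METTL3-METTL14 complex within a short consensus, RRACH (R stands for a purine, H for any base but G).

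The sequences at the 3 positions were read from the plus strand of the mm10 genome and are shown because they decide which gene a read can be given to. The first site, called the finger site here, lay at chr2:175653429-175653478, and the capitals mark its codons for the pair of zinc-binding cysteines of one finger.

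finger site: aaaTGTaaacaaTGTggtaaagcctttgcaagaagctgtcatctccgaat

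The other 2 positions, called tail site 1 (chr2:175384881-175384930) and tail site 2 (chr2:176533423-176533472), had the same 50 bases. The first 30 bases are shown, with the word GGACT of the m6A consensus in capitals.

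tail sites 1 and 2: aGGACTgtggaaggattttggaactttggg

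The finger site was listed under 5 names (0610010B08Rik, Gm14308, Gm14430, Gm14434 and Gm4724), and each of the tail sites was listed under the same 2 names, Gm14431 and Gm8898. The 5 rows of the finger site carried the same logFC and the same p value to all deposited digits, as did both rows at each tail site. Rows under different names at a position were therefore the same measurement printed again, and the 9 rows amounted to 3 measurements. Over all 614 positions, 0.814% were listed under more than 1 name, 5 positions in all, of which 3 were those of the cluster.

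At the finger site, the deposited logFC was -0.922 with a p value of 0.000421. On a natural log scale this logFC is a ratio of 0.398 between the genotypes. The scale was taken from the values, since e raised to the logFC was a whole number (within 1e-06) at 147 of the 337 listed positions with a logFC above 2. What the ratio was formed from is not stated in the sources used here, and with no error in the list and no values of single mice, no interval is given. At tail site 1 the logFC was -0.663 with a p value of 6.00e-05, which is a ratio of 0.515. At tail site 2 the logFC was -0.649 with a p value of 0.000166, which is a ratio of 0.523. All 3 positions had the same sign. The reference genotype of the logFC is not stated in the sources used here, so the sign is not turned into a gain or a loss in the knockout mice.

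Of all 614 listed positions, 32.7% had a negative logFC, 201 positions in all, and the cluster's 3 positions were among them. Since every listed position was selected on this contrast, nothing is read from that share. Within the 201 negative positions the logFC ran from -4.54 to -0.518 with a median of -0.898, which placed the finger site 93rd by size, and tail sites 1 and 2 157th and 163rd. The tail sites were thus among the smaller negative values of the list, while the finger site lay near its middle.

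**Figure D1:**
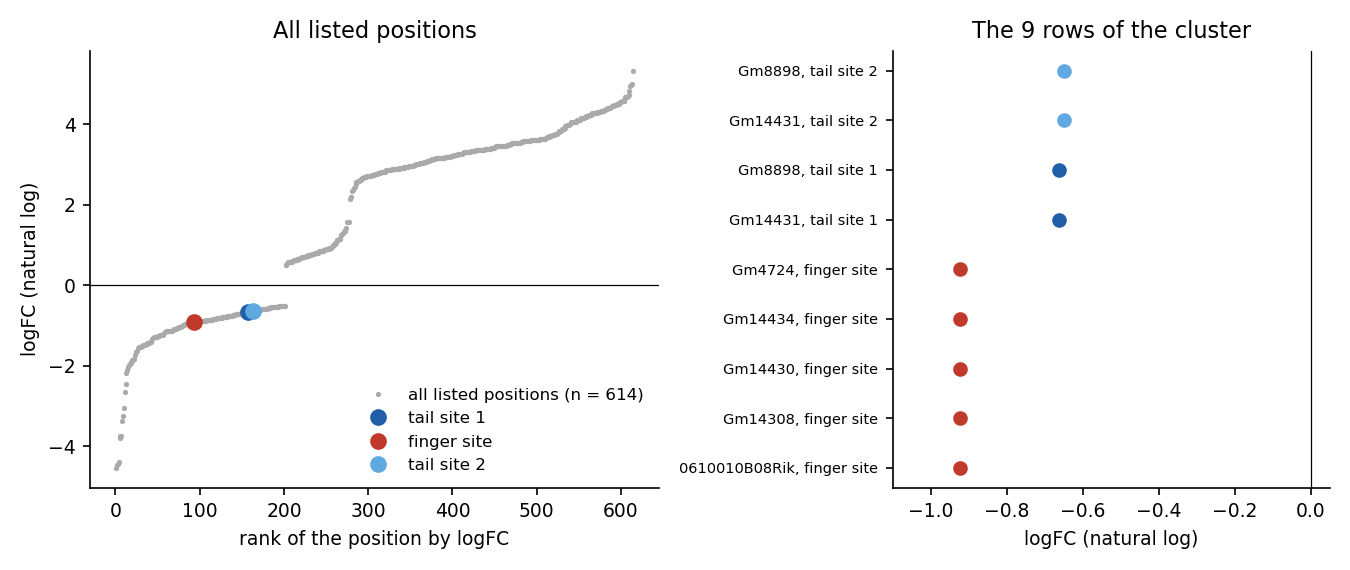
The left panel plots the logFC (natural log) of all 614 listed positions in rank order, with the 3 positions of the cluster in colour, and the right panel plots the logFC of the 9 rows by name and site. The 3 points lie among the 201 negative positions, at -0.922 for the finger site and at -0.663 and -0.649 for the tail sites, and rows under different names at a position coincide.

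The listed positions nearest in logFC to the finger site were Ythdf2, which encodes an m6A reader (-0.919), and Coa5 (-0.905) above it, and Piga (-0.923) and Chd7 (-0.924) below it. Those nearest to tail site 1 were Actr3 (-0.660) and Elovl5 (-0.658) above and Tmem56 (-0.667) and Ppp4r2 (-0.668) below. Around tail site 2 they were Ogfrl1 (-0.645) and Id2 (-0.640) above and Zfp281 (-0.649) and Snw1 (-0.650) below. These positions were picked as the nearest in logFC, so their closeness to the members was fixed by that choice. Zfp281 is a C2H2 zinc finger gene itself.

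Tail sites 1 and 2 lie 1148542 nt apart and differed in logFC by 0.0141. Because their sequences are identical, reads from either position match the other equally well. Their deposited logFC and p values were not the same, unlike those of rows under different names at a position. To what extent the same reads lie behind both was not tested, so their closeness is not read as agreement of separate measurements. The finger site differed from tail sites 1 and 2 by 0.259 and 0.273. Whether any of these differences exceeds the spread between mice could not be tested without values per mouse.

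By genome annotation, the finger site lay in the coding sequence of Gm11007, in exon 4 of 4 of its GENCODE M21 transcript. Gm11007 encodes a zinc finger protein and is not among the 5 names listed at the site. RefSeq had no exon there. Tail site 2 lay in the 3′UTR of Zfp967 in RefSeq, the present symbol of Gm14431, in exon 4 of 4. In GENCODE that gene ended 944 nt before the site. Tail site 1 lay in no annotated exon of its strand, 127 nt beyond the RefSeq end of Zfp968, another zinc finger gene of the cluster.

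Of the 9 rows, 1 lay inside an annotated gene of its own name on the listed strand, Gm14431 at tail site 2, and the other 8 did not. Over the whole list, 2.25% of the 622 rows lay outside a gene of their own name on the listed strand, which is 14 rows, so that 8 of these 14 were rows of the cluster. Gm8898 is now Zfp966, which lies at chr2:175918881-175931100 on the minus strand, and 0610010B08Rik is now Gm2026, at chr2:175965331-175980303 on the plus strand. In GENCODE, Gm4724 lies at chr2:175422300-175435807, Gm14434 at chr2:176473278-176486783 and Gm14308 at chr2:176613364-176636344, all on the minus strand. The name Gm14430 matched neither annotation. In RefSeq, Gm4724 is longer, chr2:175418037-175704126, and spans the finger site on the opposite strand. In GENCODE, 4 of the 5 names at the finger site thus belong to genes that lie elsewhere in the cluster.

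The names were those of genes with the same sequence. The finger site occurred without a mismatch at 9 places in the genome, all on chromosome 2, and each of them lay in the coding sequence of a zinc finger gene. These genes were Gm4631, Gm4724, Gm11007, Gm2007, Gm2026, Gm14434, Gm14308, Gm14305 and Gm14295. Thus 4 of the names listed at the site had an exact copy in their own coding sequence, and Gm4631, Gm2007, Gm14305 and Gm14295 held an exact copy but were not listed. The 9 places spanned 1484 kb, 5 on the plus and 4 on the minus strand. The sequence of the tail sites occurred at 4 places, the listed 2 and another 2 on the minus strand. One of these was in the 3′UTR of Zfp966, the present symbol of Gm8898, and the other was in a non-coding exon that RefSeq gives to Gm4724. GENCODE had no exon at any of the 4. Both names listed at the tail sites, Gm14431 and Gm8898, were thus those of the genes whose RefSeq 3′UTR holds the sequence.

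**Figure D2:**
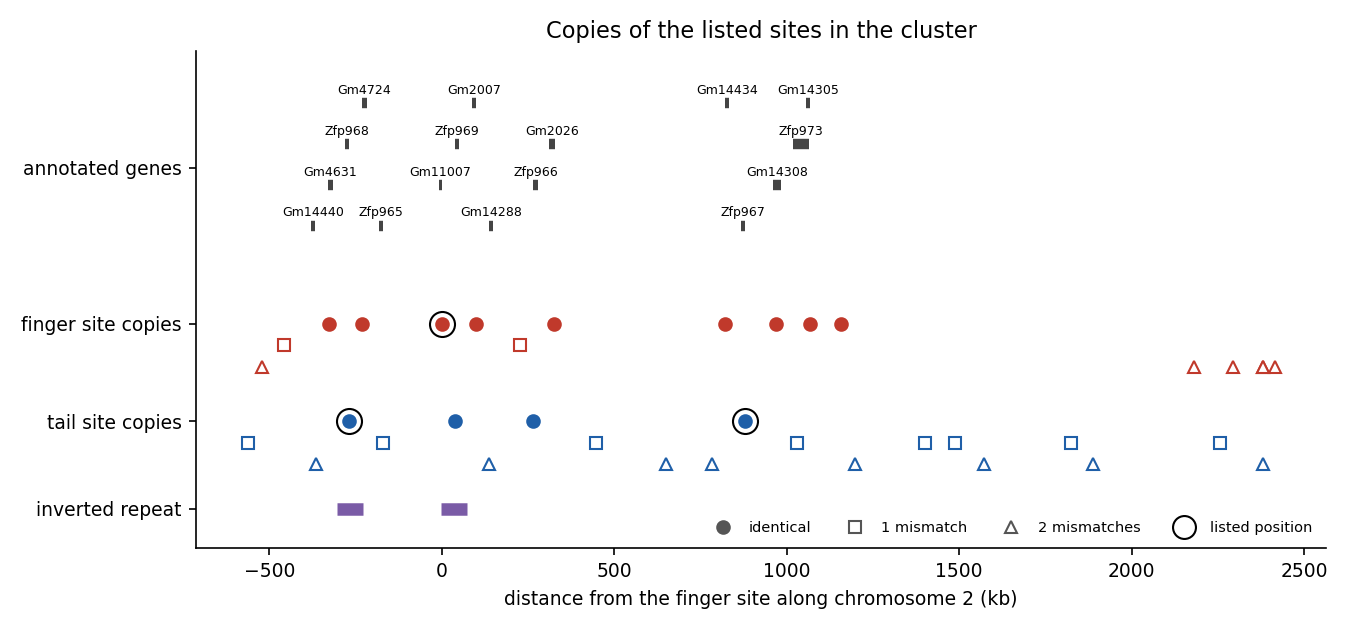
Each symbol marks a place on chromosome 2 with 0, 1 or 2 mismatches to the finger site or the tail sites, plotted by distance from the finger site in kb, below boxes for GENCODE genes of the cluster, and the bars at the bottom mark both arms of an inverted repeat of 75070 nt. The 9 identical copies of the finger site and the 4 of the tail sites are interleaved along the cluster, and 3 of these 13 places, those in rings, are listed positions.

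The identity between copies went far past the 50 nt of the sites. The uninterrupted identical block around tail site 1 and its copies was 48274 to 75070 nt long, and it was 53251 nt long between tail site 1 and tail site 2. Around the finger site and its 8 exact copies it ran from 117 nt (Gm14295) and 241 nt (Gm14305) to 75070 nt (Gm4724). The longest block was the same for both sites. It is an inverted repeat whose arms, chr2:175349475-175424544 and chr2:175651616-175726685, are identical on opposite strands and lie 227071 nt apart. The first arm held tail site 1 and, 37801 nt further, the exact copy of the finger site in Gm4724. The second arm held the finger site and, 37801 nt further, an exact copy of the tail sites.

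The copies encoded the same proteins. Of the 9 genes with an exact copy of the finger site, 8 encoded a protein of 498 residues, and in 21 of the 28 pairs among them the proteins and the coding sequences did not differ by a single residue or base. Those 21 pairs were the pairs of 7 genes, Gm11007, Gm2007, Gm2026, Gm4631, Gm4724, Gm14308 and Gm14434. Gm14305 differed from each of them by 6 residues and 7 coding bases. The ninth gene, Gm14295, encoded 834 residues. Zfp966 and Zfp967 likewise encoded 1 and the same protein of 485 residues with 11 fingers, and Zfp968 and Zfp969, which lie beside the remaining 2 of the 4 places of the tail sequence, encoded it as well. For these 6 annotated members the coding sequence itself thus came in only 2 versions.

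Within Gm11007 the finger site began 1 codon before finger 10 of 13. It covered bases 1066 to 1115 of a coding sequence of 1494 nt, and both zinc-binding cysteine codons of the finger lay within it, at bases 4 to 6 and 13 to 15 of the site. The codons of both zinc-binding histidines lay past its end. The finger pattern used was C-X2-C or C-X4-C, then X12, then H-X3 to 5-H. The 13 fingers followed each other every 84 nt, with all 12 spacings equal, so that a read could also resemble the next finger. The other 12 fingers of Gm11007 differed from the site at 4 to 17 of the 50 bases, with a median of 9, and the nearest of them was finger 2.

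Genome-wide, places with few mismatches to the finger site added to the exact copies. There were 2 places with 1 mismatch, 6 with 2, 10 with 3, 24 with 4 and 46 with 5, for 97 places in all with at most 5 mismatches, and all 97 were on chromosome 2. Of the 23 places that matched at 95% identity or more over at least 95% of the site, 22 lay in an annotated coding finger. Both places with 1 mismatch, in Gm14391 and Gm6710, had the substitution G28A, written as the base in the site, its position from 1 at the 5′ end, and the base in the copy. The places with 2 mismatches included A1G and A3C in Gm14399, Gm14325 and Gm14326, and A1G with G47A or with T37A in neighbouring fingers of Zfp971. The remaining place with 2 mismatches, in finger 5 of Zfp931, had A9C and T37A and is not shown. The other places with 1 or 2 mismatches are shown as the nearest sequences that could still be told from the site. The differing bases are in capitals, and a read must cover them to tell a copy from the site.

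Gm14391 and Gm6710: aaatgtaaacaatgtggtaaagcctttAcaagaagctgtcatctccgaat

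Gm14399, Gm14325 and Gm14326: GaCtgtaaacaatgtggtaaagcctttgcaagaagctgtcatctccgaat

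Zfp971, finger 11: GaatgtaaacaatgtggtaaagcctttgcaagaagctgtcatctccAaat

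Zfp971, finger 12: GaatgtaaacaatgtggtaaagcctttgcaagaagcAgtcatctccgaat

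The TGT codons of the cysteine pair were kept in each of these copies. In Zfp971 and in Gm14399, Gm14325 and Gm14326 the copy lay in another finger than in Gm11007, finger 2 of the protein in the latter 3 genes. A read with 1 or 2 sequencing errors at exactly these bases would match further genes and other fingers. Whether such reads occurred was not tested.

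For the tail sites, 8 places had 1 mismatch and 8 had 2, all on chromosome 2. No place had 3 or 4, and the 4 places with 5 mismatches lay on other chromosomes. All 8 places with 1 mismatch carried T16C, among them the 3′UTR of Zfp970, whose first 30 bases are shown beside those of the tail sites above.

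Zfp970 3′UTR: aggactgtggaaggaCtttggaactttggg

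**Figure D3:**
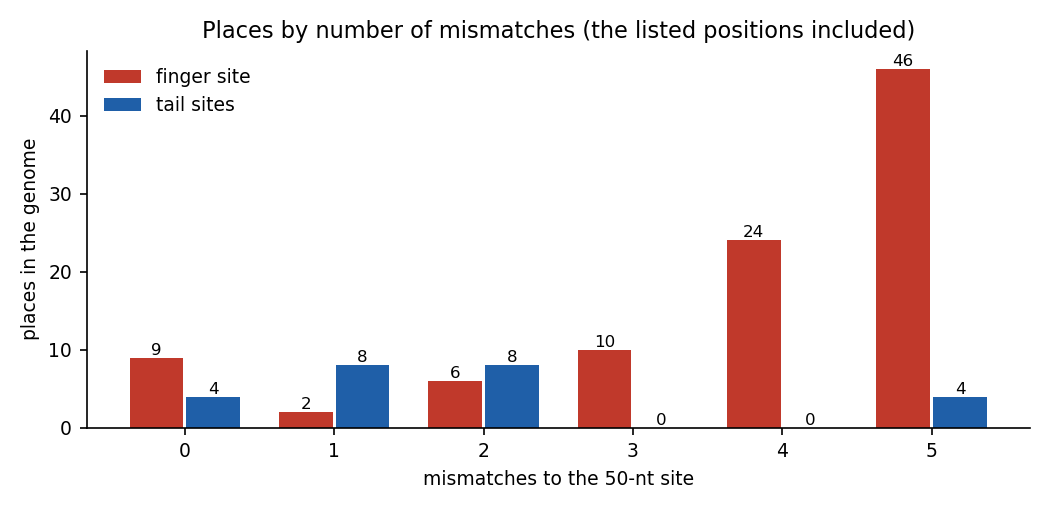
Bars give the number of places in the genome at each number of mismatches to the 50-nt finger site and to the tail sites, the listed positions included. Places rise from 9 identical ones to 46 with 5 mismatches for the finger site, while the tail sequence has 4, 8 and 8 places with 0, 1 and 2 mismatches and then none until 5.

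Over the 571 listed positions of a single block, 6.30% had another identical place in the genome and 11.2% had another place at 95% identity or more, 36 and 64 positions. All 3 positions of the cluster had both. Such copies were therefore uncommon in the list but not particular to the cluster.

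The libraries were sequenced as single reads of 50 nt. To see whether a read of that length could be placed at all, every window of 50 nt that overlaps a site was counted in the genome, 99 windows per site. None of the 99 windows at any of the 3 positions occurred in 1 place alone. At the finger site a window had 9 to 64 identical places with a median of 11, and at each tail site 4 to 12 with a median of 5. The highest numbers at the finger site were in windows that ran through the linker towards the next finger. Error-free reads from these positions thus matched at least 9 or at least 4 places equally well, and the logFC of a position is not the value of 1 gene. The methods print the HISAT2 setting as -x 1, from which it is not clear how many placements of such a read were kept, and its part in the values was not tested.

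**Figure D4:**
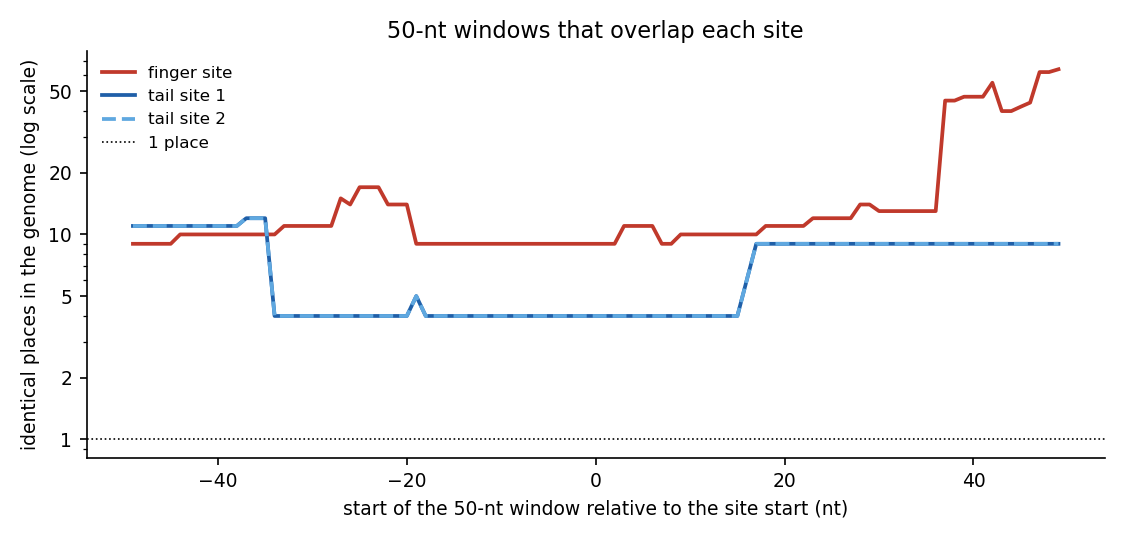
For each window of 50 nt that overlaps a site, the line gives the number of identical places in the genome on a log scale, against the start of the window relative to the site in nt. Every window lies above the dotted line at 1 place, with 4 as the lowest number at the tail sites, whose lines coincide, and 9 at the finger site.

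The m6A consensus RRACH was found on the transcribed strand at all 3 positions, and in 60.3% of the 614 listed positions, 370 of them. The finger site held 1 match, AAACA, which starts at base 7 between both cysteine codons. The tail sites held 3 matches, GGACT at base 2, GAACT at base 21 and GGACA at base 36. The shorter core GGAC was thus present in the tail sites, 2 times, and not in the finger site. A match is a description of these letters and does not show that the base is methylated.

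The C2H2 genes elsewhere in the list gave the members' values a second frame. Apart from the members, 35 listed positions belonged to genes whose protein had at least 3 fingers, 22 with a positive and 13 with a negative logFC. Over all 614 listed positions 32.7% were negative, so the split is not read as a trait of these genes. The 5 with the smallest p values were all positive, and their logFC values were 3.32 for Zeb2, a transcriptional repressor, 3.87 for Zfp526, 4.73 for Zfp937, 2.64 for Zfp800 and 4.16 for Zfp93. The 13 negative ones ran from -1.75 (Gzf1) to -0.585 (Zbtb18) with a median of -1.07, and the 3 positions of the cluster lay within that range. Of the 35 sites, 28 lay in coding sequence and 10 overlapped a finger, 5 with a positive and 5 with a negative sign. Overlap with a finger was therefore seen with both signs.

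Among the 34 of these sites in a single block, 6 had another place at 95% identity or more, against 3 of 3 in the cluster. The cluster's 3 positions are only 2 distinct sequences, and over all 571 single-block positions the share was 11.2%. The genes of the other C2H2 sites were spread over the genome, and none lay on chromosome 2 within 5 Mb of a member. A set of 45 names chosen as neighbours of the cluster was looked up as written, without a check of their chromosomes. Of these names, 1 was listed, Zfp937. Its site starts at 150239747 on chromosome 2 and so lies outside the cluster. Neither of the cofactor genes, Trim28 and Setdb1, was listed. Gm14288, which was not among these 45 names, was listed within the cluster. Members themselves are among these 45 names under their present symbols, since Gm14431 is Zfp967, Gm8898 is Zfp966 and 0610010B08Rik is Gm2026. A gene listed under an older name was not found by this lookup, so its count does not measure how much of the cluster was listed.

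**Figure D5:**
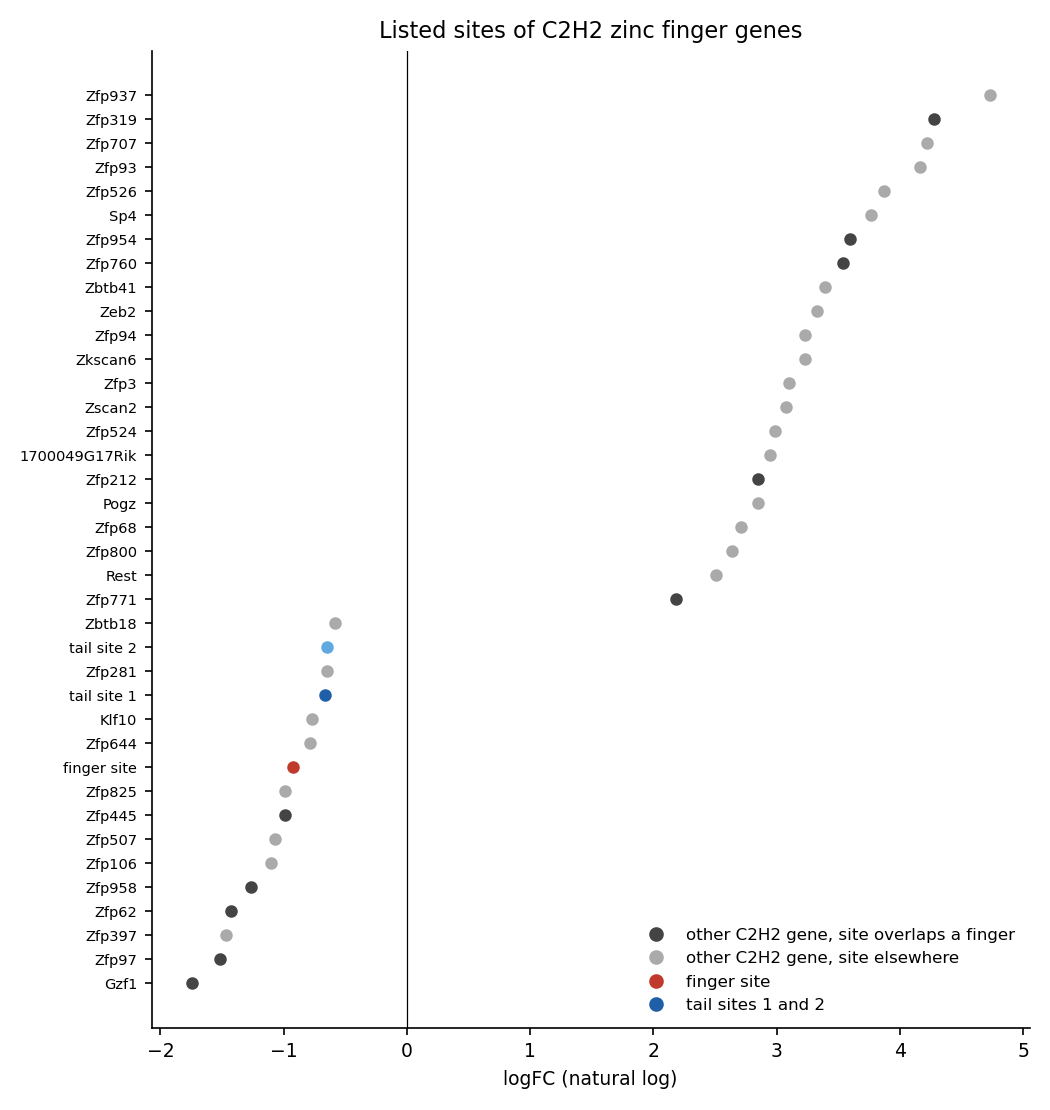
Points give the logFC (natural log) of the 35 listed sites of other genes with at least 3 C2H2 fingers and of the 3 positions of the cluster and dark grey marks sites that overlap a finger. The cluster's positions at -0.922, -0.663 and -0.649 fall among the 13 negative sites, and finger-overlapping sites stand on both sides of 0.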

How the data were processed

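The authors mapped reads to mm10 with HISAT2 (setting printed as -x 1, version not given in the sources used here), counted IP and INPUT reads in bins on concatenated exons, adjusted IP counts by a gene-wise INPUT size factor, and tested genotype with RADAR. The only deposited table holds the results of that comparison. The logFC values the authors deposited were read as natural log ratios, since many are logs of whole numbers, so they need not be the coefficients that were tested. The sources used here do not say whether the p values the authors deposited are adjusted. Both are the authors' own results, used here only to describe the members, and no SE or interval was derived from them. Depth per library is unknown.

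Coordinates are 1-based on mm10 and sequences came from GRCm38.p6 (RefSeq), with genes from GENCODE M21 and RefSeq. Present symbols were found for 6 of 7 names. Member sites were searched in the primary assembly by a scan for up to 5 mismatches, and all single-block positions with BLAST+ 2.17.0 (ungapped, word size 11, 500 target sequences at most). Each gene's longest coding sequence was translated for fingers. The search and finger scripts were tested on simulated data. Python 3.11.15, NumPy 2.4.6 and pandas 2.3.3 were used.

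The members and lists were chosen with earlier results of these data known. Named genes were the 7 member names, up to 10 annotated genes with an exact copy of a member site, the 5 other listed C2H2 genes with the smallest p values and any within 5 Mb of a member, and the 2 listed positions nearest in logFC on each side. Genes at near copies, Zfp968, Zfp969, Gzf1, Zbtb18 and Gm14288 were named after their values were seen. No test, and no alternative that leaves out a mouse, could be run.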

Additional observations from a re-analysis of the deposited data

How the results depend on the processing

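The median logFC of the 9 rows was -0.922, and it was -0.922 with each name counted once, -0.789 with each sequence once and -0.663 with each position once, since 5 of the 9 rows repeat the finger site. The sign did not change. All 3 positions had another near-identical place when full identity, 90% identity (at most 5 mismatches) or chromosome 2 alone was required. The count of positions in a finger was 1 with the pattern in any of 3 forward frames and 0 with the linker H-T-G-E-K-P alone, which the finger site does not reach. All 3 positions had the m6A consensus with DRACH or with 25 nt added on each side, and 2 with GGAC. The share of listed positions with another place was 6.30% for identical and 14.2% for 90% identity, against 11.2%. Other C2H2 sites numbered 42 with at least 1 finger and 28 by name, against 35. No paired analysis was possible because the deposited table has no values per mouse. For the same reason no mouse could be left out. No error of a logFC is known, and the values reflect neither which copy a read came from nor the selection of the listed sites.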

Other observations

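One more listed position lay in the same cluster under a name outside the 7 members. It was chosen after its values were seen. Gm14288 was listed at chr2:175283313-175283362 on the plus strand, with a logFC of -0.693, a ratio of 0.500, and a p value of 0.000488. The position was 101568 nt from tail site 1 and lay in exon 2 of 3 of Gm14440, in an exon that encodes the KRAB box rather than a finger.

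Gm14288 site: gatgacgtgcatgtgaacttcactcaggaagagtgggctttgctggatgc

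This sequence occurred at 15 places, all on chromosome 2, of which 11 lay in annotated coding sequence, and 0 of its 99 overlapping windows of 50 nt occurred in a single place. One of the 15 was in Gm14288 itself. Listed positions of the cluster thus lay in a KRAB exon, in a finger, and in or past the RefSeq 3′ end of a gene. Their sequences had 15, 9 and 4 exact places, and 2 of the 4 are the listed tail sites. All had a negative logFC, as had 32.7% of all listed positions. Since listed positions were selected on this contrast, nothing is read from the shared sign. Beside the named positions, Srms, Cables2, Zgpat and Ythdf1 were the other genes with listed positions within 5 Mb on chromosome 2.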
